A study of Rattus norvegicus with 6 samples.

Results

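The genes of the proteasome were followed in the lungs of rats that had inhaled C60 fullerene or nickel oxide particles. They were chosen by name alone: every probe of the array whose gene name, without the suffixes _predicted and _mapped, starts with Psma, Psmb, Psmc, Psmd or Psme followed by a digit. This took 41 of the 36429 genes or unnamed transcripts on the array, carried by 49 of its 41012 probes. One of them, Psmc3ip, encodes a meiotic recombination factor and no subunit. It passed the test in none of the 8 comparisons, and it was kept out of all counts. The other 40 genes were 7 α subunits of the 20S core, 7 constitutive β subunits, the 3 immunoproteasome genes Psmb8, Psmb9 and Psmb10, 6 ATPases and 10 non-ATPase subunits of the 19S particle, 3 assembly chaperones and 4 activators. All 41 were well above background on all 21 arrays used, so no gene was lost to the filter on dim probes.

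Male Wistar rats, 9 weeks old and 5 to a group and time, sat in a whole-body chamber for 6 hours a day on 5 days a week over 4 weeks. They breathed clean air (control), an aerosol of C60 fullerene, a closed cage of carbon atoms, or ultrafine nickel oxide (NiO), which the study used as its positive control. Lungs were taken 3 days or 33 days after the last exposure, the later time being called 1 month, and were first rinsed with saline through their vessels. RNA of the whole right lung, carrying the dye Cy3, was read on 1-colour arrays of 60-base probes. At 3 days the groups were control (3 arrays), C60 (2 arrays) and NiO (4 arrays), and at 1 month each group had 4 arrays. The C60 group of 3 days came with 4 arrays but a label of n = 2. Its arrays 1 and 2 were used, because they rebuilt the ratios the authors deposited for it to a median log2 distance of 0.000822, against 0.109 for all 4 and 0.116 to 0.218 for the other 5 pairs. An array was taken to be 1 rat, and a p-value here reflects how far such arrays differ. The labels' n equals the arrays used in each group, for C60 at 3 days by the choice of arrays. The design's 4 right lungs equal the arrays that came with each group, except the 3 of control at 3 days. It is not stated whether RNA was pooled. A slide never held more than 1 group and a scan day never more than 1 time, so neither can be told apart from what it carried.

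The 20S core of the proteasome is a barrel of α and β rings, and 3 of its constitutive β subunits, encoded by Psmb5, Psmb6 and Psmb7, cut proteins that carry ubiquitin chains. Interferon gamma makes cells replace these with the immunoproteasome subunits of Psmb8, Psmb9 and Psmb10, which favour peptides that can be loaded onto MHC class I. The 19S particle caps the barrel: its ATPases unfold the substrate and its non-ATPase subunits bind, release and recycle ubiquitin chains, while Psme1 and Psme2 encode the interferon-inducible 11S activator. In the lung these genes are expressed in every cell type, with the immunoproteasome most abundant in leukocytes.

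Values are log2 of the processed signal with the 75th percentile of each array set to 0. A difference of 1 is thus a 2-fold difference in signal. Calls, and their absence, refer to this scaling and all used arrays unless another fit is named. The share of spots well above background ran from 57.4 to 78.3 percent, and all 7 lung markers (surfactant proteins, Ager, Scgb1a1, Cldn18) were above it on 21 of 21 arrays. A gene was called at a Benjamini-Hochberg adjusted p under 0.05 in limma, fitted over all 24983 genes or unnamed transcripts that passed the filter, with the 6 groups sharing 1 estimate of the spread. Proteasome genes varied little between arrays of a group, with a median within-group SD of 0.148 against 0.256 for all features. Their number of arrays limits the precision: the 95% interval lay within 2-fold either way for 39 of 40 genes in each comparison of a particle with control. In whole lung, fewer cells of a type and less RNA per cell cannot be told apart.

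Few proteasome genes were called between a particle group and its control, and most differences were small. At 3 days after NiO 3 of 40 genes were higher and 1 lower, beside 11.1 percent higher and 7.86 percent lower (19 percent in all) among all features. Which genes were called, and how they split, depended on the scaling, while the 4 genes called here kept their sign under all 4 scalings. With the array median at 0, 1 was higher (Psmd6) and 3 lower (Psmd11, Psma7 and Psmb3). With quantile normalization 4 were higher and 4 lower, and with normexp 1 and 1. One month after NiO the counts were 3 higher and 1 lower (11.9 and 18.9 percent of all features, 30.9 in all). At 3 days after C60 1 gene was higher and 4 were lower (2.94 and 1.99 percent, 4.93 in all), and at 1 month 2 were higher and 1 lower (7.29 and 12.4 percent, 19.7 in all). Genes whose groups did not overlap were few too, save at 3 days after C60. After NiO 4 were above and 3 below all controls at 3 days (12.8 and 10.3 percent of all features) and 5 and 2 at 1 month (15.2 and 22 percent). After C60 3 were above and 23 below at 3 days (20.2 and 24.8 percent), where 2 arrays met 3, and 4 and 2 at 1 month (11.3 and 16.3 percent). A log2 difference of under 0.5 was found for 39, 39, 37 and 39 of the 40 genes in these 4 comparisons. The shares of members called were below the share of all features except among the lower genes at 3 days after C60. Leaving out 1 array moved these counts. For NiO at 3 days 16 genes were called without NiO array 1, 2 without NiO array 2, NiO array 3 or control array 3, and 1 without control array 1. For C60 at 3 days the count was 2 without control array 3 and 3 without control array 1 or 2. It was 11 (1 higher, 10 lower) with all 4 arrays that came with the group, beside 11.9 percent of all features. At 1 month it was 2 without control array 2 and 7 without control array 4 after NiO. After C60 at 1 month no gene was called without control array 2 or C60 array 1, 2 or 3. A fit of only the groups compared called 0, 4, 1 and 1 genes in the 4 comparisons. Comparisons at the same time share their control arrays, so their values are given side by side and not as independent results.

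**Figure D1:**
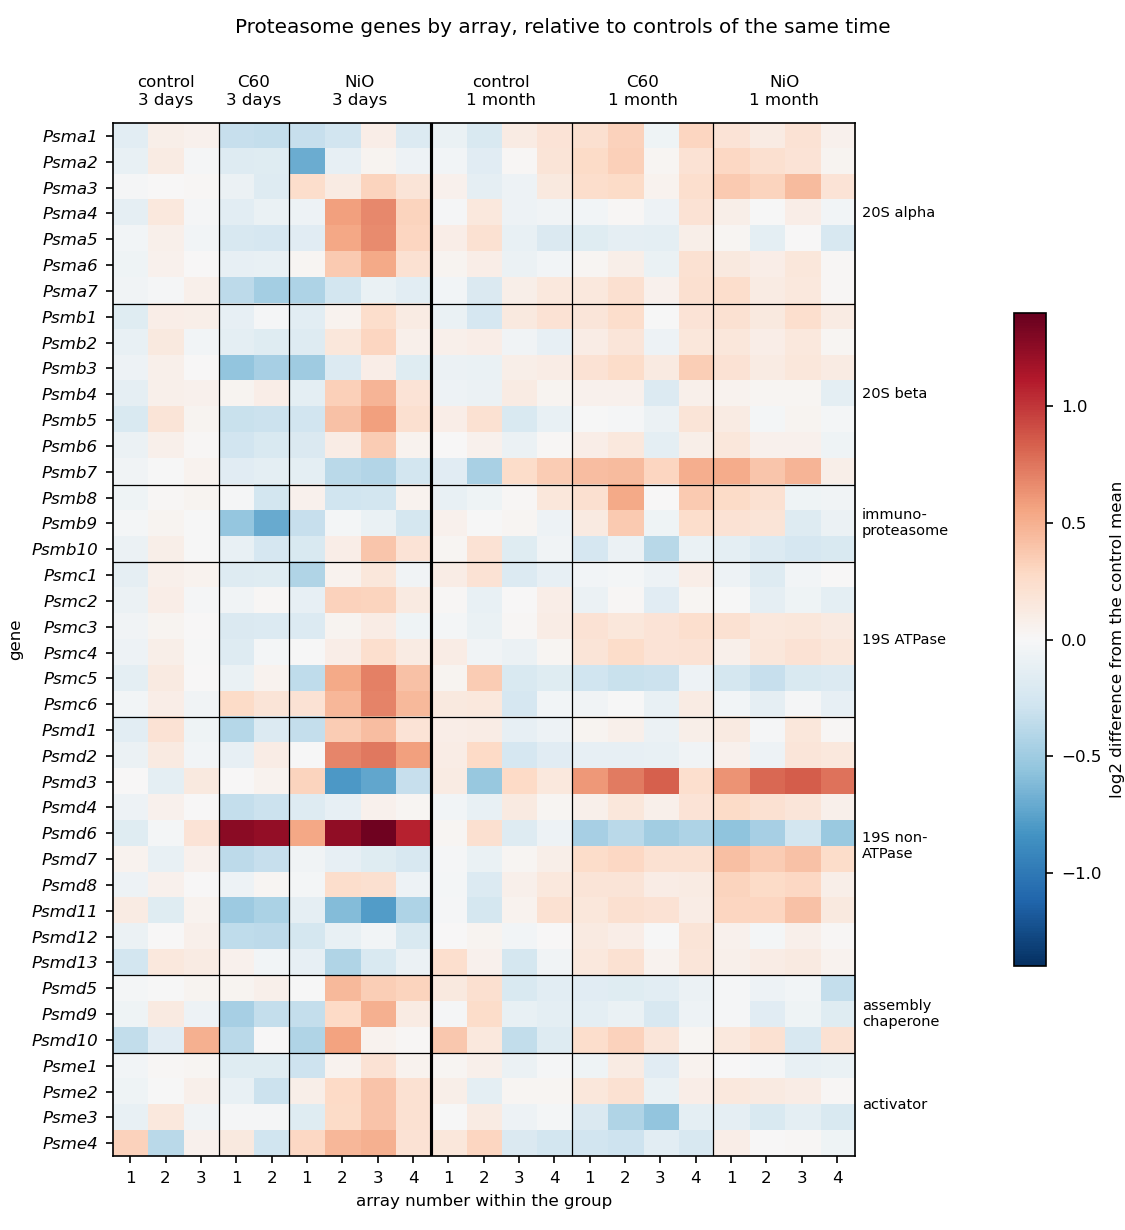
Heat map of the 40 proteasome genes (rows, by class) over the 21 arrays used (columns, by group): colour is the log2 difference of an array from the mean of its time's controls, red being higher. Psmd6 stands out on the C60 and NiO arrays of 3 days, and NiO array 1 at 3 days differs from NiO arrays 2 to 4 across many genes.

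The arrays of the NiO group at 3 days were not alike. The median of the 40 genes lay 0.151 below the control mean on array 1, and 0.107, 0.273 and 0.0883 above it on arrays 2, 3 and 4. Both C60 arrays of 3 days lay below the control mean, at -0.153 and -0.172. The 3 controls of that time lay between -0.0735 and 0.0698. Of the 16 genes called without NiO array 1, 14 were higher and 2 lower, but 38.4 percent of all features were then called too. The negative-control spots of the C60 arrays at 3 days read 72.6 and 35.9 above local background, beside -3.84 to 17.9 on the other used arrays. The part of these array differences in the results was not tested.

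How arrays were scaled decided the size of the shift of the 40 genes as a whole, and its sign at 3 days after NiO. The 4 scalings compared were the 75th percentile, the array median, quantile normalization and the 75th percentile after another background correction (normexp). With the 75th percentile at 0, the median log2 difference of the 40 genes was 0.0918 at 3 days and 0.0816 at 1 month after NiO, and -0.16 and 0.0926 after C60. The same medians over all features were 0.0445, -0.124, -0.0342 and -0.0888. Scaling each array to its median, which is how the deposited value table was built, was tried after seeing the data. It moved all differences by -0.178, 0.338, -0.0243 and 0.306 in the same order, and the medians of the members became -0.0866, 0.419, -0.184 and 0.399. Under it 25 genes were called higher at 1 month after NiO and 23 after C60, none lower. Of all features 39.3 and 33.9 percent were then called in either direction. The distance of the member median from the median of all features is the same under these 2 scalings by construction, since both move all genes of an array alike: 0.0472 and 0.206 for NiO, -0.125 and 0.181 for C60. With quantile normalization it was 0.0746, 0.0537, -0.0748 and 0.0633 in the same order, and with normexp -0.0577, 0.252, -0.173 and 0.108. Its sign at 3 days after NiO thus turned with normexp, and its size at 1 month was smallest with quantile normalization. With the 75th percentile at 0, against the 7398 features in the same level range, whose medians at 1 month were -0.00198 for NiO and 0.00381 for C60, the distance was smaller.

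**Figure D2:**
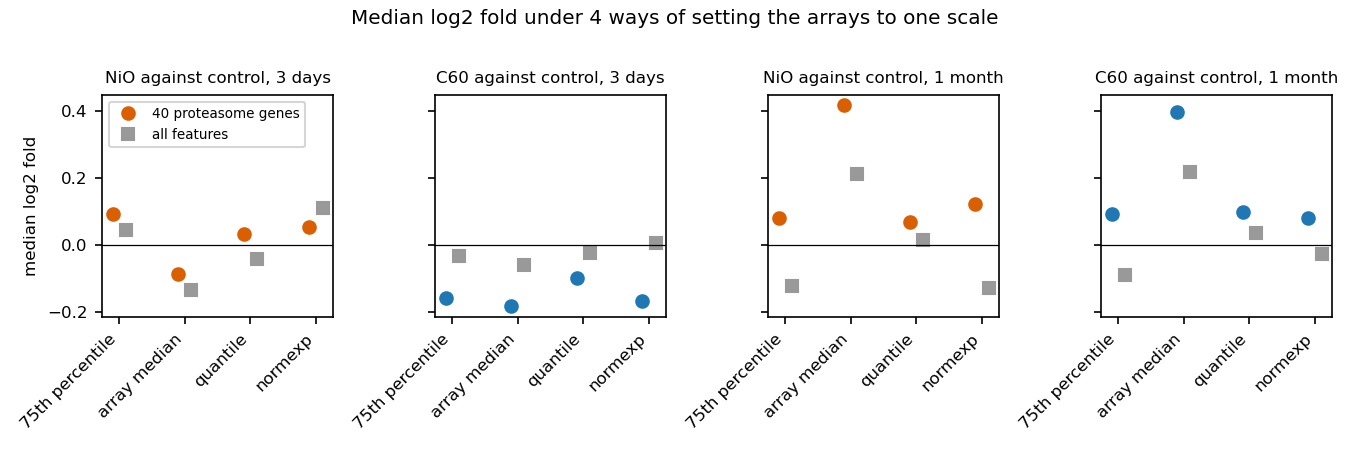
Median log2 difference between particle and control under 4 ways to scale the arrays, for the 40 proteasome genes and for all features. At 1 month the members' median goes from 0.0816 (NiO) and 0.0926 (C60) at the 75th percentile to 0.419 and 0.399 with the array median at 0, and the median of all features moves with it.

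The α ring closes the barrel and gates the entry of substrates. After NiO none of its 7 genes was called at 3 days, with differences from -0.23 to 0.37. At 1 month after NiO Psma3 was the one α gene called. It read 4.11, 3.91, 3.97 and 4.18 on the control arrays, 4.41, 4.35, 4.48 and 4.23 on the NiO arrays and 4.29, 4.31, 4.09 and 4.27 on the C60 arrays. All 4 NiO arrays were above all 4 controls, while the C60 arrays overlapped them. The difference was 0.33 for NiO (SE 0.0843, limma adjusted p = 0.00936) and 0.20 for C60 (adjusted p = 0.0993). Psma3 stayed called after NiO without any 1 of the 8 arrays and under all 4 scalings. Other α genes were called under other scalings. With the array median at 0, Psma1, Psma2, Psma4, Psma6 and Psma7 were higher at 1 month after NiO. After C60 Psma1, Psma2, Psma3, Psma6 and Psma7 were. With normexp Psma7 was higher at 1 month after both particles. At 3 days after NiO Psma7 was lower with the array median and quantile normalization, and Psma4 higher with the latter. After C60 all 7 α genes had 3-day values below control, by 0.11 to 0.42, and none was called. On 6 of the 7 both C60 arrays were below all 3 controls, a pattern that 24.8 percent of all features showed in that comparison of 2 arrays with 3. Psma7 had the largest of these differences, -0.42 (adjusted p = 0.0524).

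Of the 7 constitutive β genes, none was called after NiO at either time with the 75th percentile at 0. With the array median at 0, Psmb1, Psmb2, Psmb3, Psmb4, Psmb6 and Psmb7 were called higher at 1 month after NiO. Psmb3 was then called lower at 3 days. Psmb7 was also called at 1 month after NiO with normexp, and Psmb3 at 3 days with quantile normalization. Psmb3, a structural subunit of the β ring, was lower at 3 days after C60. It read 4.23, 4.37 and 4.31 in controls and 3.75 and 3.84 after C60, and 3.81, 4.11, 4.40 and 4.13 after NiO. Both C60 arrays were below every control, whereas NiO array 3 was above all of them. The difference of -0.51 for C60 (SE 0.132, adjusted p = 0.0317) was lost when any 1 of the 5 arrays was left out, with adjusted p up to 0.229. Psmb7 was the β gene called at 1 month after C60, at 0.42 (SE 0.144, limma adjusted p = 0.0476), and it is described with the catalytic subunits. With the array median at 0, Psmb1, Psmb2, Psmb3, Psmb4 and Psmb6 were called higher there too, as was Psmb3 with normexp.

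The catalytic subunits come in pairs: Psmb8 replaces Psmb5, Psmb9 replaces Psmb6 and Psmb10 replaces Psmb7 in the immunoproteasome. Each is read by 1 probe, and 5 of the probes are shown since the replacing and the replaced subunit are related proteins whose signals must be kept apart (coordinates of build rn4 as the array's grid gives them). They are written 5′ to 3′ with no base singled out, and no level of one probe was set against another.
Psmb5: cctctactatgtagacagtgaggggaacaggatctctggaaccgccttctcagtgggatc
Psmb8: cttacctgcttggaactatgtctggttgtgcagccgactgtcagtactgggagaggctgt
Psmb6: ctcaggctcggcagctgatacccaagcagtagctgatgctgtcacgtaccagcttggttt
Psmb9: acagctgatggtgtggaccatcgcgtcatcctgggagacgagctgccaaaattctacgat
Psmb7: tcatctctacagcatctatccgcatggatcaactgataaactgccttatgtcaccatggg
They lie at chr15:32690134-32690193 (minus strand) for Psmb5, chr20:4787980-4788039 (minus strand) for Psmb8, chr10:57371368-57371427 (plus strand) for Psmb6, chr20:4806341-4806400 (plus strand) for Psmb9 and chr3:18413231-18433105 (minus strand) for Psmb7. The Psmb7 interval is far longer than the probe, so its bases are not contiguous in the genome, while the others span 60 bases.

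Under the scaling used for the calls, no immunoproteasome gene was called after NiO, the study's positive control, at either time. Psmb8, the chymotrypsin-like immunosubunit, read 2.85, 2.92 and 2.95 in controls, 2.96, 2.62, 2.65 and 2.95 after NiO and 2.89 and 2.65 after C60 at 3 days. At 1 month it read 2.95, 2.99, 3.07 and 3.21 in controls, 3.32, 3.27, 2.99 and 3.01 after NiO and 3.27, 3.59, 3.06 and 3.42 after C60. The groups overlapped at both times, and the C60 arrays of 1 month held the highest values. The differences for NiO were -0.11 at 3 days (95% interval -0.389 to 0.173) and 0.09 at 1 month (-0.167 to 0.353). For C60 they were -0.13 and 0.28, the latter with an adjusted p of 0.113.

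Psmb9, which takes the place of the caspase-like Psmb6, read 4.57, 4.63 and 4.59 in controls, 4.05 and 3.89 after C60 and 4.27, 4.56, 4.50 and 4.35 after NiO at 3 days. Both C60 arrays were far below the controls, and the 4 NiO arrays lay below the lowest control (4.57) as well, the nearest of them at 4.56. The difference was -0.63 for C60 (SE 0.139, 95% interval -0.921 to -0.334, adjusted p = 0.0121) and -0.17 for NiO (interval -0.42 to 0.0707). The call after C60 held under all 4 scalings and without 4 of the 5 arrays left out in turn, with an adjusted p of 0.133 without C60 array 2, and it was 0.0537 in a fit of only the C60 and control arrays of 3 days. At 1 month Psmb9 read 4.53, 4.46, 4.49 and 4.40 in controls, 4.60, 4.84, 4.41 and 4.71 after C60 and 4.68, 4.65, 4.29 and 4.39 after NiO. These groups overlapped, with differences of 0.17 and 0.03. The C60 effect on Psmb9 differed between the times by 0.80 (interaction in limma, adjusted p = 0.00904).

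Psmb10, the trypsin-like immunosubunit, read 4.29, 4.46 and 4.37 in controls, 4.16, 4.46, 4.77 and 4.56 after NiO and 4.27 and 4.14 after C60 at 3 days. At 1 month it read 5.04, 5.22, 4.84 and 4.97 in controls, 4.88, 4.83, 4.78 and 4.81 after NiO and 4.78, 4.93, 4.62 and 4.92 after C60. Both C60 arrays of 3 days were below all controls, as 24.8 percent of all features were in that comparison, while the NiO arrays overlapped the controls. At 1 month the groups overlapped. The differences were 0.11 (interval -0.149 to 0.378) and -0.19 (-0.436 to 0.0516) for NiO, and -0.17 and -0.20 for C60. The intervals for NiO hold only for the scaling used for the calls. Across the 3 genes, they left room for a rise of at most 0.378 at 3 days and 0.353 at 1 month. With each array scaled to its median, Psmb8 and Psmb9 were called higher at 1 month after NiO, at 0.43 and 0.37. Both values lie above the limit of 0.353. Psmb8 and Psmb9 were then also called higher at 1 month after C60, at 0.59 and 0.48.

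The 3 constitutive counterparts had differences in both directions, of which that of Psmb7 at 1 month after C60 was called. Psmb5, the chymotrypsin-like subunit, read 3.49, 3.89 and 3.74 in controls, 3.44, 4.12, 4.28 and 3.93 after NiO and 3.39 and 3.40 after C60 at 3 days. At 1 month Psmb5 read 4.17, 4.29, 3.87 and 3.98 in controls, 4.20, 4.05, 4.12 and 4.05 after NiO and 4.07, 4.07, 3.99 and 4.26 after C60. Both C60 arrays and NiO array 1 of 3 days were below all controls, the other 3 NiO arrays were above them, and at 1 month the groups overlapped. Psmb6, the caspase-like subunit, read 2.84, 2.99 and 2.93 in controls, 2.71, 3.02, 3.28 and 2.97 after NiO and 2.65 and 2.71 after C60 at 3 days. At 1 month Psmb6 read 3.33, 3.39, 3.25 and 3.35 in controls, 3.49, 3.39, 3.40 and 3.28 after NiO and 3.42, 3.48, 3.20 and 3.41 after C60. For Psmb6 too the C60 arrays of 3 days were below all controls, while the NiO arrays overlapped them and all groups overlapped at 1 month. Psmb5 differed from control by 0.24 and 0.03 after NiO and by -0.31 and 0.02 after C60, and Psmb6 by 0.08 and 0.06 and by -0.24 and 0.04, with no call.

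Psmb7, the trypsin-like subunit, read 2.42, 2.47 and 2.52 in controls, 2.33, 2.09, 2.05 and 2.21 after NiO and 2.31 and 2.33 after C60 at 3 days. At 1 month it read 2.40, 2.10, 2.81 and 2.91 in controls, 3.07, 2.94, 3.02 and 2.64 after NiO and 2.98, 3.00, 2.85 and 3.06 after C60. Control array 2 of 1 month was the lowest of its group and control array 4 overlapped both particle groups. The NiO difference was -0.30 at 3 days (adjusted p = 0.18) and 0.37 at 1 month (adjusted p = 0.062), and these differed from each other by 0.66 (interaction, adjusted p = 0.0225). At 1 month after NiO Psmb7 was called with normexp (0.55, adjusted p = 0.00883) and with the array median at 0 (0.70, adjusted p = 0.00268). The call at 1 month after C60 held under 3 of 4 scalings and in 2 of 8 fits that left out 1 array. Without control array 2 the difference was 0.27.

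**Figure D3:**
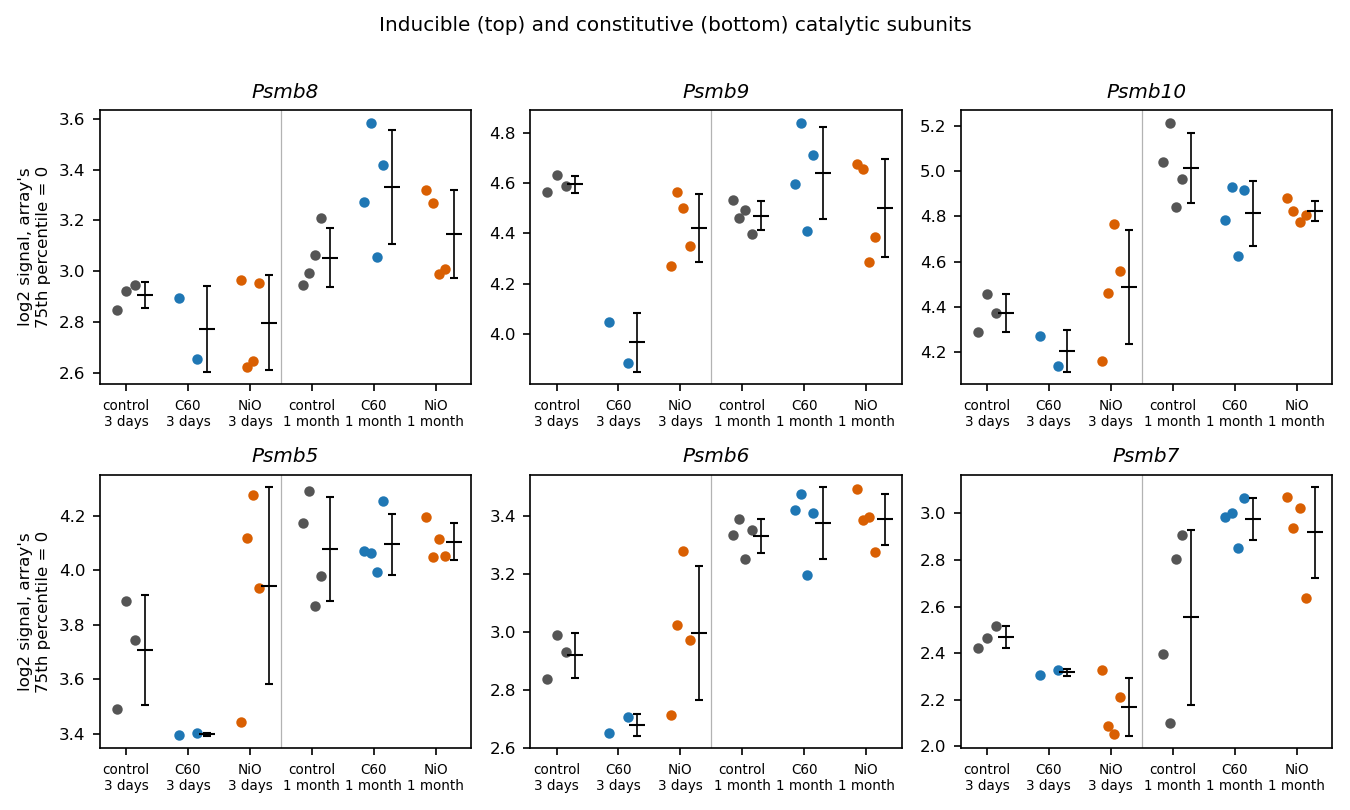
Log2 signal (75th percentile of the array at 0) of the 3 immunoproteasome genes and their constitutive counterparts on each array, by group, with the group mean and SD. Psmb9 of both C60 arrays at 3 days lies at 4.05 and 3.89, below the 3 controls at 4.57 to 4.63.

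The balance within a pair was tested on the difference between both genes of an array, which no scaling of the array can change and which was read only between groups. There were 12 tests (3 pairs, 4 comparisons, two-sided exact permutation). With p adjusted over them by Benjamini-Hochberg none passed, the lowest adjusted p being 0.286. Passing would have needed most of the tests to reach the smallest p their design allows, so they give values only. That smallest p is 0.0286 for 4 arrays against 3 and for 4 against 4, and 0.1 for 2 against 3. Psmb10 minus Psmb7 gave the lowest raw p: the difference was -0.63 at 1 month after C60 (exact permutation p = 0.0286, n = 4 against 4) and -0.56 after NiO (exact permutation p = 0.0857). Psmb9 minus Psmb6 at 3 days after C60 differed by -0.39, with the smallest p allowed, 0.1 (exact permutation, n = 2 against 3).

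The ATPases of the 19S base, Psmc1 to Psmc6, form the ring that unfolds substrates. Psmc6 was the one of 6 called at 3 days after NiO. It read 2.89, 3.02 and 2.88 in controls, 3.13, 3.40, 3.63 and 3.39 after NiO and 3.20 and 3.11 after C60. All NiO arrays and both C60 arrays were above all controls. The difference was 0.45 for NiO (SE 0.113, adjusted p = 0.0117) and 0.22 for C60 (adjusted p = 0.435). The NiO call held in 6 of 7 fits without 1 array and under 2 of 4 scalings. With the array median at 0 the difference was 0.28 (adjusted p = 0.189), and with normexp 0.20 (adjusted p = 0.275). The gene's second probe gave 0.24, and the mean of both 0.35 (adjusted p = 0.0555). At 1 month Psmc6 read 3.84, 3.85, 3.47 and 3.66 in controls, 3.67, 3.57, 3.69 and 3.59 after NiO and 3.65, 3.69, 3.60 and 3.82 after C60, and the groups overlapped. The NiO effect was lower at 1 month than at 3 days by 0.53 on the log2 scale (interaction -0.53, adjusted p = 0.0156). No other ATPase was called against control in either group with the 75th percentile at 0. At 1 month Psmc3 and Psmc4 were called higher after both particles with the array median at 0 and with normexp. Psmc4 was called higher with quantile normalization at 1 month after C60, and Psmc2 lower with normexp at 1 month after NiO. With quantile normalization Psmc6 was also called higher at 3 days after C60.

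The non-ATPase subunits, which form the lid and part of the base, held most of the called genes. These are the probes of the 3 genes with the largest or most variable differences, and of Psmd7, whose probes disagreed. They are written as above, with positions in build rn4.
Psmd6: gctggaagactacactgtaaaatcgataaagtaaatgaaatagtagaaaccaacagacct
Psmd3: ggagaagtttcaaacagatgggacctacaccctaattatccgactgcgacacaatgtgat
Psmd11: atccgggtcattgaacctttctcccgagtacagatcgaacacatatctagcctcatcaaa
Psmd7 (used): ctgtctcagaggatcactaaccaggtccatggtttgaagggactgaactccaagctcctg
Psmd7 (not used): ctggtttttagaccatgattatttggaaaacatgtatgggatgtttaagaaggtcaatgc
They lie at chr15:12660117-12660290 (plus strand) for Psmd6, chr10:87465622-87465681 (plus strand) for Psmd3, chr10:68708038-68708474 (plus strand) for Psmd11, chr19:37452992-37453051 (minus strand) for the Psmd7 probe used and chr19:37456176-37456793 (minus strand) for one of its other 2 probes. The sequence of the remaining Psmd7 probe, which gave 0.29 where the one used gave -0.34 (C60 at 3 days), is not shown.

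Psmd6, a scaffold subunit of the lid, showed the largest differences of any member at 3 days. It read -0.82, -0.68 and -0.46 in controls, 0.61 and 0.58 after C60 and -0.11, 0.59, 0.71 and 0.42 after NiO. All particle arrays were above all controls, and NiO array 1 was the nearest to them. The difference was 1.05 for NiO (SE 0.155, 95% interval 0.727 to 1.38, adjusted p = 0.000238), a 2.08-fold higher signal. For C60 it was 1.25 (SE 0.186, interval 0.857 to 1.64, adjusted p = 0.000411), a 2.38-fold higher signal. Both calls held under all 4 scalings and in every fit that left out 1 array, with adjusted p up to 0.0029 for NiO and 0.00733 for C60. In a fit of only the NiO and control arrays of 3 days the adjusted p for NiO was 0.0517. NiO and C60 differed from each other by -0.19 (interval -0.565 to 0.177, adjusted p = 0.494).

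At 1 month Psmd6 was lower in both particle groups. It read 1.24, 1.44, 1.04 and 1.14 in controls, 0.75, 0.83, 0.72 and 0.79 after C60 and 0.65, 0.75, 0.96 and 0.69 after NiO, and no particle array reached the lowest control. It fell by 0.45 on the log2 scale after NiO (SE 0.144, adjusted p = 0.0252) and by 0.44 after C60 (SE 0.144, adjusted p = 0.0394). With each array scaled to its median the differences were -0.12 (adjusted p = 0.575) and -0.14 (adjusted p = 0.515). Left-out arrays kept the call in 4 of 8 fits for NiO and in 2 of 8 for C60. The effect differed between the times by -1.51 for NiO (interaction, adjusted p = 0.000218) and by -1.69 for C60 (adjusted p = 0.000178). The group means show where the levels lay: -0.65, 0.60 and 0.40 for control, C60 and NiO at 3 days, and 1.22, 0.77 and 0.76 at 1 month. The control mean was 1.87 higher at 1 month than at 3 days, the largest such difference of the 40 genes. All 4 comparisons of Psmd6 use 1 of these control groups. In the authors' deposited table, whose arrays are scaled to their median, the log2 of the Psmd6 ratio was 0.88 and -0.12 for NiO and 1.23 and -0.14 for C60, at 3 days and 1 month.

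Psmd3, another scaffold subunit of the lid, had the largest difference of the 40 genes at 1 month after either particle. At 1 month it read 1.35, 0.70, 1.52 and 1.38 in controls, 1.87, 2.04, 2.09 and 1.99 after NiO and 1.85, 1.96, 2.07 and 1.48 after C60. All NiO arrays were above all controls, control array 2 was far below its group, and C60 array 4 overlapped the controls. The difference was 0.76 for NiO (SE 0.212, interval 0.312 to 1.21, adjusted p = 0.0141) and 0.60 for C60 (adjusted p = 0.0538). The NiO call held under all 4 scalings and in 7 of 8 fits without 1 array. Without control array 2 the adjusted p was 0.0544. At 3 days Psmd3 read 2.08, 1.92 and 2.20 in controls, 2.38, 1.26, 1.34 and 1.75 after NiO and 2.08 and 2.12 after C60. NiO array 1 was the highest of these 9 arrays while NiO arrays 2 to 4 were the lowest, and the difference of -0.38 was not called. The NiO effect differed between the times by 1.14 (interaction, adjusted p = 0.0116).

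Psmd11, a scaffold subunit of the lid, read 2.19, 1.91 and 2.13 in controls, 1.95, 1.46, 1.29 and 1.64 after NiO and 1.56 and 1.64 after C60 at 3 days. NiO array 1 overlapped the controls and the other NiO arrays and both C60 arrays were below them. The difference was -0.49 for NiO (SE 0.136, adjusted p = 0.0207) and -0.47 for C60 (adjusted p = 0.111). The NiO call held under all 4 scalings but in only 3 of 7 fits without 1 array. At 1 month the values ran from 1.37 to 1.82 in controls, 1.71 to 1.84 after C60 and 1.75 to 2.03 after NiO, with no call. The NiO effect on Psmd11 differed between the times by 0.78 (interaction, adjusted p = 0.00641).

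Psmd7 partners the deubiquitinating subunit of the lid. At 1 month its brightest probe ran from 2.80 to 2.97 in controls, 3.11 to 3.18 after C60 and 3.16 to 3.31 after NiO, so that no particle array overlapped the controls. The differences were 0.36 for NiO (SE 0.0719, adjusted p = 0.00233) and 0.24 for C60 (adjusted p = 0.0269), and at 3 days it was lower after C60 by 0.34 on the log2 scale (-0.34, adjusted p = 0.0394). The other 2 probes of the gene gave -0.01 and 0.11 for NiO at 1 month, -0.10 and -0.12 for C60 at 1 month, and 0.29 and -0.12 for C60 at 3 days. With the mean of the 3 probes no call was made in these comparisons, as at 1 month after NiO (0.15, adjusted p = 0.0827). The Psmd7 calls therefore rest on 1 of 3 probes. With normexp that probe gave 0.18 for NiO at 1 month (adjusted p = 0.0768) and 0.05 for C60 (adjusted p = 0.727). Under the 4 scalings the call was made in 3 for NiO at 1 month, and in 2 for C60 at each time. It held in 8 of 8 fits without 1 array for NiO at 1 month, 4 of 8 for C60 at 1 month and 1 of 5 for C60 at 3 days.

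Psmd2, a ubiquitin-binding subunit of the base, was called at 3 days after NiO. It ran from 5.94 to 6.15 in controls and read 6.02, 6.71, 6.76 and 6.60 after NiO, with array 1 among the controls. The difference was 0.50 (SE 0.155, adjusted p = 0.0349), and the call held in 1 of 7 fits without 1 array. Its second probe gave 0.14 at 3 days and 0.70 at 1 month, where the brighter one gave 0.08. Psmd12, a lid scaffold subunit, ran from 3.31 to 3.46 in controls and read 3.03 and 3.02 after C60 at 3 days. The difference of -0.36 (SE 0.0921, adjusted p = 0.0279) was lost in 4 of 5 fits without 1 array. The other non-ATPase genes, Psmd1, Psmd4, Psmd8 and Psmd13, were not called against control at either time with the 75th percentile at 0. With the array median at 0, Psmd1, Psmd4 and Psmd8 were called higher at 1 month after NiO, and Psmd4, Psmd8 and Psmd13 after C60. With normexp Psmd4 was called lower at 3 days after C60.

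**Figure D4:**
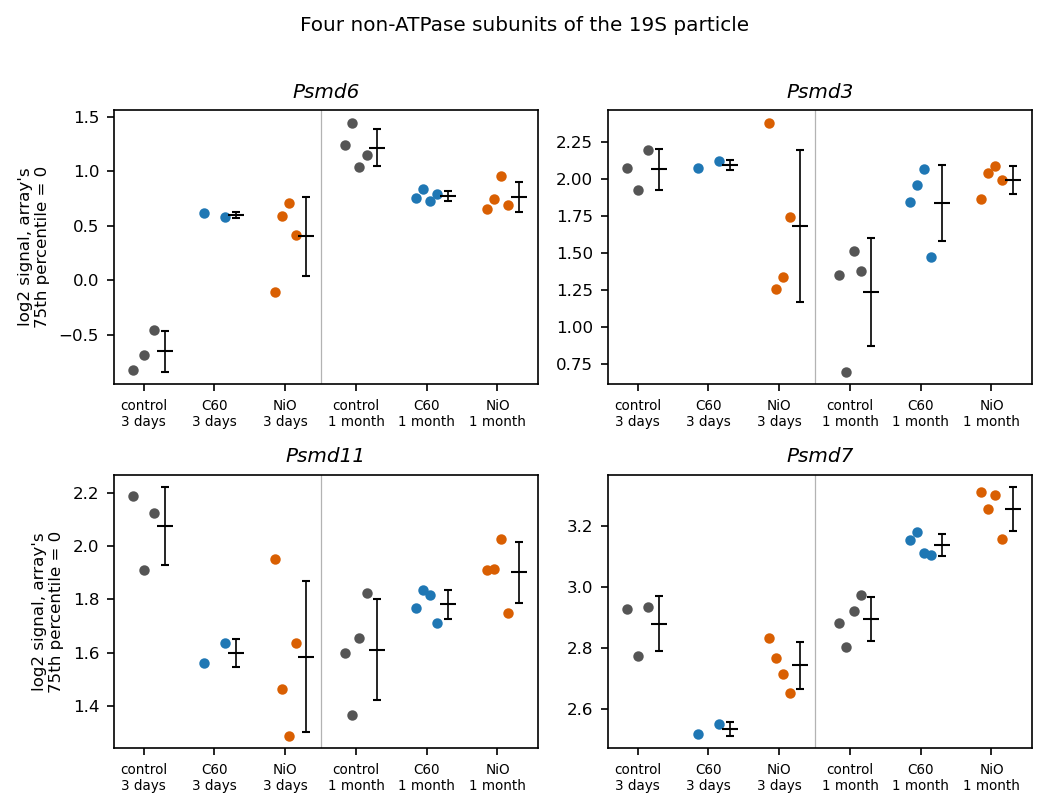
Log2 signal (75th percentile of the array at 0) of Psmd6, Psmd3, Psmd11 and Psmd7 on each array, by group, with the group mean and SD. Psmd6 of the controls lies at -0.82 to -0.46 at 3 days and at 1.04 to 1.44 at 1 month, while all particle arrays lie between -0.11 and 0.96.

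The assembly chaperones Psmd5, Psmd9 and Psmd10 help to build the 19S base and leave the finished particle. None was called against control in any of the 4 comparisons. Their differences ranged from 0.06 to 0.28 after NiO at 3 days and from -0.11 to 0.08 at 1 month. After C60 they ranged from -0.39 to 0.05 and from -0.14 to 0.19.

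Psme1 and Psme2, the subunits of the interferon-inducible activator, were not called against control with the 75th percentile at 0. Psme2 was called at 1 month with the array median at 0 (NiO 0.44, adjusted p = 0.008; C60 0.40, adjusted p = 0.0155), at 3 days after NiO without NiO array 1 (0.29, adjusted p = 0.023), and at 3 days after C60 with all 4 arrays of that group (-0.36, adjusted p = 0.0413). At 3 days Psme1 read 4.61, 4.67 and 4.68 in controls, 4.36, 4.70, 4.86 and 4.70 after NiO and 4.49 and 4.48 after C60. At 1 month Psme1 read 5.01, 5.05, 4.89 and 4.96 in controls, 4.98, 4.96, 4.88 and 4.89 after NiO and 4.92, 5.09, 4.82 and 5.02 after C60. NiO array 1 held the lowest Psme1 value of 3 days, and both C60 arrays were below all controls of that time. Psme2 read 3.22, 3.27 and 3.35 in controls, 3.36, 3.56, 3.68 and 3.49 after NiO and 3.18 and 2.98 after C60 at 3 days. At 1 month Psme2 read 3.98, 3.76, 3.93 and 3.92 in controls, 4.04, 4.02, 4.00 and 3.92 after NiO and 4.06, 4.11, 3.81 and 3.99 after C60. The NiO arrays of 3 days were above all Psme2 controls and the C60 arrays below them, and at 1 month the groups overlapped. Psme2 differed from control by 0.24 (adjusted p = 0.0872) and 0.10 after NiO and by -0.20 and 0.10 after C60, and Psme1 by 0.00 and -0.05 and by -0.17 and -0.02. Psme3, the nuclear activator subunit, differed by -0.33 at 1 month after C60 (limma adjusted p = 0.0519). It was called lower there with quantile normalization and with normexp, and at 1 month after NiO with normexp. Psme4, the activator known for its part in histone degradation, was not called in any comparison with control, with a difference of 0.36 at 3 days after NiO.

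NiO and C60 were then compared with each other, over arrays that share no control. At 3 days 2 of 40 genes were higher after NiO and none lower (5.06 and 2.72 percent of all features, 7.78 in all), and 13 were above and 1 below all C60 arrays (14.7 and 10.6 percent). Psmb9 was higher by 0.45 (SE 0.132, adjusted p = 0.0449) and Psme2 by 0.44 (SE 0.11, adjusted p = 0.0223). Of the 40 genes 34 had positive differences, with a median of 0.22 against 0.0584 over all features. Under the 4 scalings Psmb9 was called in 1 and Psme2 in 2. Without NiO array 1, 22 genes were called, beside 28.5 percent of all features, 1 without NiO array 2, and none without NiO array 3 or either C60 array. With all 4 arrays that came with the C60 group 26 genes were called, all higher after NiO, beside 23.8 percent of all features. At 1 month no gene was called, none had an unadjusted p under 0.05, and limma called 0.837 percent of all features higher and 0.396 percent lower (1.23 in all). One gene, Psme4, was above all C60 arrays and none below (6.3 and 6.16 percent). All differences at 1 month were under 0.5 in size, and their 95% intervals lay within 2-fold for all 40 genes. The 4 scalings and all other alternatives run for this comparison also gave 0.

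**Figure D5:**
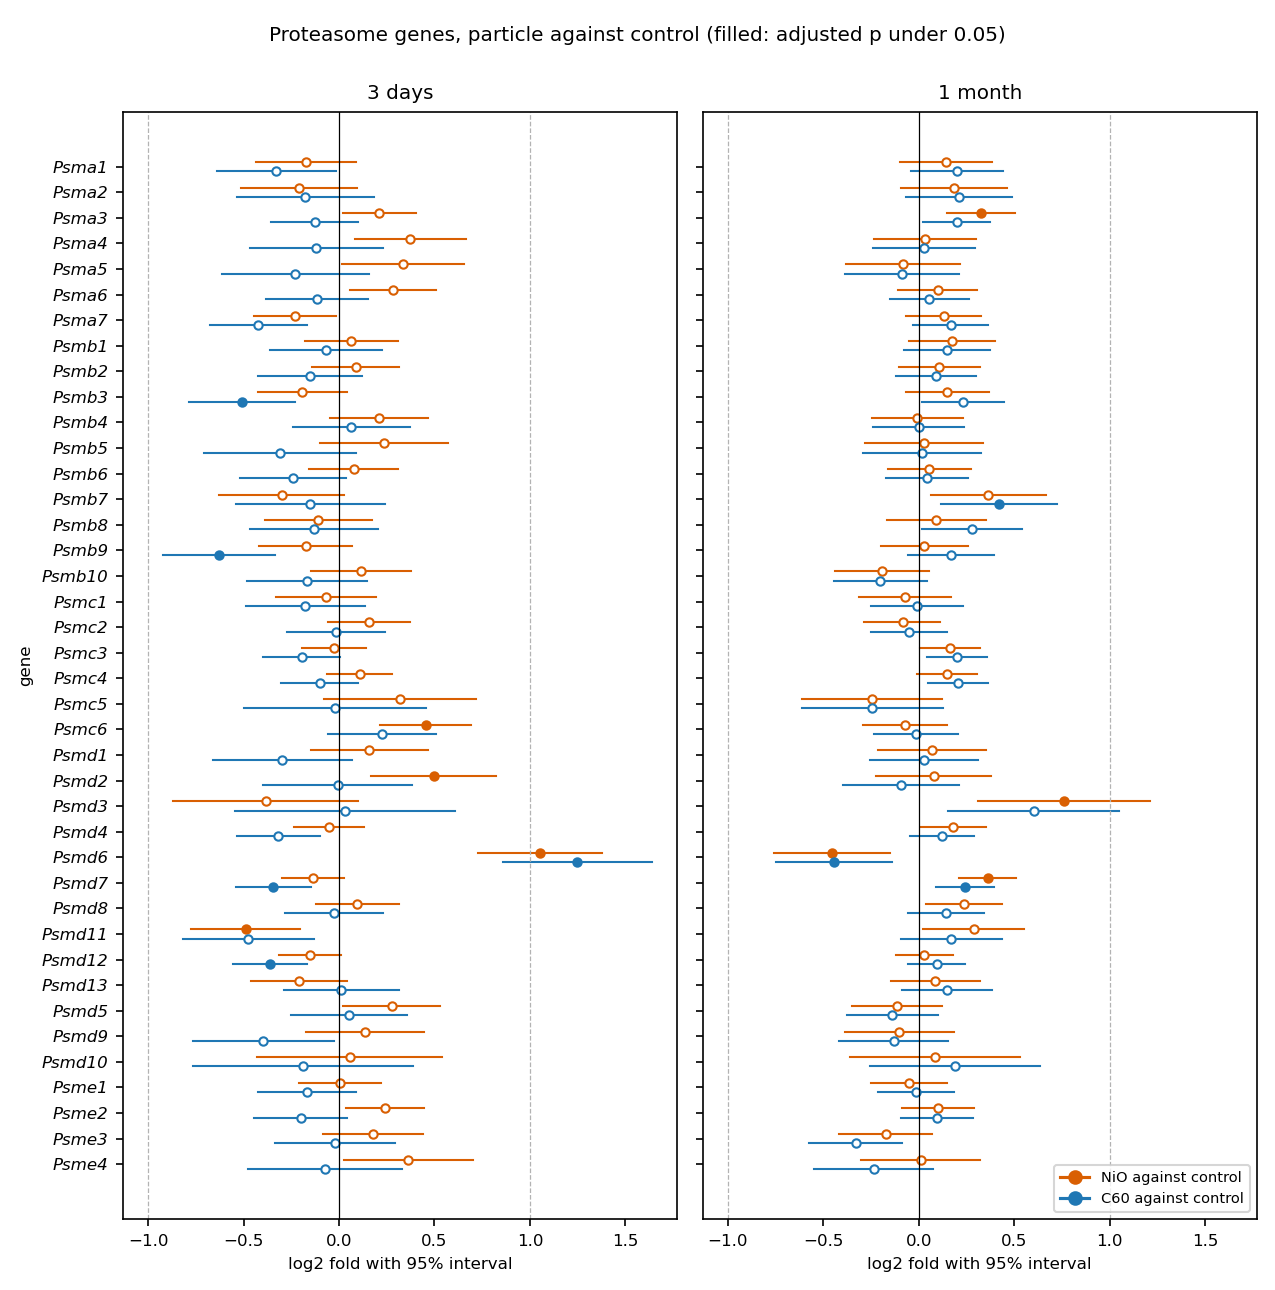
Log2 differences between each particle and control for the 40 proteasome genes, by class, at 3 days and 1 month, with bars for the 95% intervals, filled points for adjusted p under 0.05 and dashed lines at 2-fold. Psmd6 lies at 1.05 (NiO) and 1.25 (C60) at 3 days and at -0.45 and -0.44 at 1 month, and most other genes lie within 0.5 of 0.

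The effect of a particle differed between the times for 7 genes after NiO (5 with a higher effect at 1 month, 2 with a lower one, beside 14.4 and 23.1 percent of all features, 37.5 in all). That split turned to 4 higher and 12 lower without NiO array 1 of 3 days, and was 22 higher and 1 lower with each array's median at 0. The shares of all features called were then 52.1 and 44.6 percent. For C60 the effect differed for 8 genes (7 higher, 1 lower, beside 4.22 and 6.19 percent, 10.4 in all). The array median gave 16 higher and 1 lower, beside 16.5 percent of all features. Since scan day and time coincide and both interactions hold the same control arrays, they are not separate evidence. Levels themselves also differed between the times. On all 12 arrays of 1 month Psma2, Psma3, Psmb1, Psmb4 and Psme2 were above all 9 arrays of 3 days, and no member was below (5.54 and 2.85 percent of all features). Between the 2 control groups 19 members were higher and 4 lower without overlap (29.9 and 19.9 percent). The median of the members was 0.216 higher in the later controls, and that of all features 0.189. The control genes that were lower at 1 month were Psmb9, Psmc3, Psmd11 and Psmd3.

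Genes that work with the proteasome were read from a fixed list of ubiquitin-activating enzymes, shuttle factors, assembly factors and the regulators Nfe2l1 and Nfe2l2, of which 29 were tested. At 3 days after NiO 2 were higher and 1 lower, among them Uchl5, a deubiquitinase of the 19S particle (0.55), and the shuttle factor Ubqln2 (-1.16). At 1 month after NiO 7 were higher and 2 lower, among them Ubqln4 (0.86), Ubr4, a ubiquitin ligase (0.62), Pomp, the assembly factor of the 20S core (0.52), and Uba1, the ubiquitin-activating enzyme (0.51). After C60 none was higher and 1 lower at 3 days (Ubqln2, -1.37), and 3 were higher and none lower at 1 month (Ubqln4, Ubr4 and Uba1). Between NiO and C60 1 was lower at 3 days and none differed at 1 month. Of all features, 11.1 percent were higher and 7.86 percent lower at 3 days after NiO, and 11.9 and 18.9 percent at 1 month. After C60 these shares were 2.94 and 1.99 percent at 3 days, and 7.29 and 12.4 percent at 1 month. Between NiO and C60 they were 5.06 and 2.72 percent, and 0.837 and 0.396 percent.

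Peptide loading and interferon gamma response genes were read in the same way, 22 of them tested. None was higher and 2 were lower at 3 days after NiO, Socs1 (-1.04), an inhibitor of interferon signalling, and the transcription factor Irf2 (-0.81). At 1 month after NiO 2 were higher, the peptide transporter Tap1 (0.70) and the chaperone Calr (0.70), and 5 were lower, including the interferon gamma gene Ifng (-0.76), and the interferon-induced Cxcl9 (-1.35) and Gbp2 (-0.63). After C60 none was called at 3 days, and 1 was higher and 2 lower at 1 month. Of all features, 11.1 percent were higher and 7.86 percent lower at 3 days after NiO, and 11.9 and 18.9 percent at 1 month. After C60 these shares were 2.94 and 1.99 percent at 3 days, and 7.29 and 12.4 percent at 1 month. The immunoproteasome genes, which interferon gamma induces, were not called between NiO and control under the scaling used for the calls. With each array scaled to its median, Psmb8 and Psmb9 were called higher at 1 month after NiO.

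Some markers of other cell types were called after NiO, where 11.1 and 7.86 percent of all features were higher and lower at 3 days and 11.9 and 18.9 percent at 1 month. Of 10 macrophage and monocyte markers tested, 5 were higher and none lower at 3 days after NiO, led by the scavenger receptor Msr1 (2.79), and 4 were higher at 1 month. The mean level of the list, as a deviation from its mean over all arrays, ran from 0.137 to 0.444 on the NiO arrays of 3 days and from -0.391 to -0.184 in controls. At 1 month it ran from 0.102 to 0.63 and from -0.163 to -0.0415. No macrophage marker was called after C60, where 2.94 and 1.99 percent of all features were higher and lower at 3 days. At 1 month after C60 these shares were 7.29 and 12.4 percent. Of 7 neutrophil markers 1 was higher after NiO at 3 days (Cd177, 4.47), and 1 higher and 1 lower at 1 month, with none after C60. Endothelial markers were lower after NiO for 4 of 8 at 3 days and 3 of 8 at 1 month, and cell cycle genes were higher for 6 of 9 and 5 of 9, with 1 cell cycle gene lower at 3 days. After C60, endothelial markers gave 1 lower at 3 days and 2 higher and 1 lower at 1 month, and cell cycle genes 1 higher at 3 days. T and NK cell markers (13 tested) and B and plasma cell markers (5 tested) had at most 1 call in each direction in each of the 4 comparisons. No tested marker of these lists was at background on every array. The part of these cell types in the proteasome results was not tested.

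Probes of the members differ in where they lie on the transcript. For 15 genes the probe's genomic interval was longer than its 60 bases, and for 25 it was not. At 1 month after NiO the median difference was 0.146 for the former and 0.0303 for the latter, and among features in the level range 0.161 and -0.0251. After C60 the 4 values were 0.171, 0.0264, 0.137 and -0.0195. At 1 month the members followed the array at large in this split. At 3 days the 4 values were -0.0265, 0.138, -0.00291 and 0.0344 after NiO. After C60 they were -0.169, -0.152, -0.0657 and -0.0492. The split was thus wider among the members than in the level range at 3 days after NiO. Its part in the results was not tested.

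The promoters of the members were searched for letters bound by factors of these pathways, in the 250 bases before the start of the gene (RefSeq, assembly GRCr8, both strands). The table held 37 of the 40 genes. The core of the antioxidant response element, TGACNNNGC, which Nfe2l1 and Nfe2l2 bind, was in 7 of 37 (18.9 percent, beside 10.1 percent of 33469 promoters). The core of the interferon-stimulated response element (GAAA, any 2 bases, GAAA) was in 5 of 37 (13.5 and 3.41 percent), and the gamma-activated site, TTCNNNGAA, in 4 of 37 (10.8 and 7.67 percent). A CCAAT box was in 18 of 37 (48.6 and 34.0 percent). These promoters, of Psmb8, Psmb10, Psme2 and Psmb5, are those of 3 interferon-inducible members that held an interferon motif and of 1 constitutive counterpart, chosen after the matches were seen. Interferon motifs were not confined to the inducible members. The interferon-stimulated element was also in Psma4, Psmb3 and Psmd7, and the gamma-activated site in Psmc6, Psmd3 and Psmd7, whose promoters are not shown. The interferon-inducible members Psmb9 and Psme1 were in the table too, and their windows held none of the 4 motifs. Capitals mark the interferon or antioxidant motif, and CCAAT boxes are not marked (Psmb8 holds one, 73 bases before the start).
Psmb8: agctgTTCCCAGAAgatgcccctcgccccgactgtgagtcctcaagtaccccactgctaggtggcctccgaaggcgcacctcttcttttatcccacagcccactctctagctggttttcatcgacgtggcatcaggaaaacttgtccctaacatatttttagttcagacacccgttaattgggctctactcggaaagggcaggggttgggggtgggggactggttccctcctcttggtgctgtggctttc
Psmb10: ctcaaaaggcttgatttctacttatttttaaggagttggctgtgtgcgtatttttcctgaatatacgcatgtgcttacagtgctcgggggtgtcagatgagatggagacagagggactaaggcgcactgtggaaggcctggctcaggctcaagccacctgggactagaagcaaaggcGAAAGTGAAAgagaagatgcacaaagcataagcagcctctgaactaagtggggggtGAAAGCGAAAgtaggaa
Psme2: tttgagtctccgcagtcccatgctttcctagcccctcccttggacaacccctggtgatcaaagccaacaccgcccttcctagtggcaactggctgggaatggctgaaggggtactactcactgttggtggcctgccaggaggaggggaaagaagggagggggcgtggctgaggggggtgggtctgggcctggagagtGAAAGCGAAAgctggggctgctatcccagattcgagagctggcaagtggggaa
Psmb5: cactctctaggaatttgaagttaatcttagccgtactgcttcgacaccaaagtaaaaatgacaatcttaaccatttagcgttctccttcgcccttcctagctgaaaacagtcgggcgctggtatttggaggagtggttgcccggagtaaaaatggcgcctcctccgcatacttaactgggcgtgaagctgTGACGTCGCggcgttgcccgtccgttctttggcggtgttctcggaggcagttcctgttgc
They lie at chr20:4657032-4657281 (minus strand) for Psmb8, chr19:50743293-50743542 (minus strand) for Psmb10, chr15:33052752-33053001 (minus strand) for Psme2 and chr15:32047380-32047629 (minus strand) for Psmb5 of GRCr8. The capitals are a gamma-activated site in Psmb8, both interferon-stimulated elements in Psmb10, 1 such element in Psme2 and an antioxidant element in Psmb5. None of these 4 genes was called against control with the 75th percentile at 0. A match describes the letters only and is no evidence that a factor binds there.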

How the data were processed

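Scanner output of 23 1-colour arrays was read, of which 21 were used. Per the file headers, Feature Extraction 9.5.3.1 (protocol GE1-v5_95_Feb07, grid of build rn4) gave the deposited processed intensity of each spot, already corrected for background and for a spatial trend. The authors also deposited a table of linear ratio values per probe and group. It was rebuilt to a median absolute log2 difference of at most 0.00084 over 20326 probes by scaling each array to its median and dividing by the controls of the same time. The match settled its scale and direction (particle over control) and was made after removal of any constant shift. Its centring was seen in single genes. The deposited log2 ratio of Psmd6 at 3 days after NiO was 0.877, beside 0.876 with the array median at 0. The medians of its columns were 1.006, 1.038 and 0.986 (control, C60, NiO, 3 days) and 0.997, 1.125 and 1.133 (1 month).

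Control spots and outlier spots were left out, spots of 1 probe were averaged, and values were put on the log2 scale with each array's 75th percentile at 0. A probe was kept if all used arrays of 1 or more groups had it well above background (28685 probes). Each gene took its brightest kept probe, which gave 24983 features, 13554 of them with a symbol. Names of the members are those of the array files, and other probes took a current RefSeq symbol where one was found. The fit was limma 3.58.1 in R 4.3.3 (lmFit, eBayes, 15 residual and 2.31 prior degrees of freedom) with Benjamini-Hochberg adjustment, and it was tested on simulated data. Psma8, Psmb11 and Psmd14 were not analysed here. Some genes of the lists are not reported by name here.

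The members, gene lists and tests were chosen with earlier results of these data known. All members may be named; values of every array are given for the immunoproteasome genes, their counterparts, Psme1, Psme2 and, per class and comparison, the called member with the largest difference, and for other called members where they help. Alternatives were another background correction, quantile normalization, scaling to the array median (chosen after seeing the data), other filters, the mean of a gene's probes, all 4 C60 arrays of 3 days, only the groups compared, array position as a block, the deposited ratio table and leaving out arrays.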

Additional observations from a re-analysis of the deposited data

Results flagged for a closer look

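In 4 of 160 sets of 4 arrays, each the values of 1 gene in 1 group, an array lay far from the other 3, where chance gives about 1 in 20. Psmb4, a β subunit, read 4.83 on C60 array 3 of 1 month beside 5.08 to 5.09 on the others, and 4.88 on NiO array 4 of 1 month beside 5.04 to 5.07. Psmc5, an ATPase of the 19S base, read 5.83 on C60 array 4 of 1 month beside 5.58 to 5.61. Psmd10, a chaperone of the base, read 1.64 on NiO array 3 of 1 month beside 2.01 to 2.08.

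For 7 genes the NiO effect (log2 difference from control) differed between 1 month and 3 days, by the interaction term of limma with Benjamini-Hochberg adjustment. The later effect was higher for Psmd3 by 1.14 (adjusted p = 0.0116), Psmd11 by 0.78 (0.00641), Psmb7 by 0.66 (0.0225), Psmd7 by 0.50 (0.00378) and Psma7 by 0.36 (0.0487). The change in effect was -1.51 for Psmd6 (adjusted p = 0.000218) and -0.53 for Psmc6 (0.0156).

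The C60 effect differed between the times for 8 genes by the same test. The later effect was higher for Psmb9 by 0.80 (adjusted p = 0.00904), Psmb3 by 0.74 (0.0105), Psma7 by 0.59 (0.0213), Psmd7 by 0.59 (0.0045), Psmd12 by 0.46 (0.0195), Psmd4 by 0.44 (0.0411) and Psmc3 by 0.39 (0.0468). For Psmd6 the change in effect was -1.69 (adjusted p = 0.000178). All these terms hold the control arrays of both times, and the scan day changed with the time.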

How the results depend on the processing

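Sign changes were looked for in the catalytic subunits, Psme1, Psme2 and the genes called in the main fit, in comparisons between groups. Among these no called value changed sign. The interaction terms, and genes called only under another setting, were not checked for this. Counts of called members moved as follows, the cause not being tested. With normexp background correction they were 2 (NiO, 3 days), 9 (NiO, 1 month), 6 (C60, 1 month), 5 (NiO against C60, 3 days) and 11 (NiO effect, 1 month minus 3 days). Quantile normalization gave 8 for NiO at 3 days. With each array scaled to its median, chosen after seeing the data, they were 25 (NiO, 1 month), 3 (C60, 3 days), 23 (C60, 1 month), 0 (NiO against C60, 3 days), 23 (NiO effect) and 17 (C60 effect). A filter on every array (18963 features) gave 5 for C60 at 1 month, and no filter (36429 features) gave 1 there and 1 for NiO against C60 at 3 days. All 4 C60 arrays of 3 days gave 11 for C60 at 3 days, 26 for NiO against C60 and 16 for the C60 effect. Fits of only the groups compared gave 0 for NiO and 1 for C60 at 3 days, 1 for C60 at 1 month and 0 for NiO against C60 at 3 days. Array position as a block gave 2 for C60 at 3 days. Without NiO arrays 2 and 3 of 3 days together the counts were 1 for NiO at 3 days, 7 for C60 at 1 month, 0 for NiO against C60 at 3 days and 4 for the NiO effect.

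Leaving out 1 array at a time gave 1 to 16 called members for NiO and 1 to 3 for C60 at 3 days, 2 to 7 and 0 to 4 at 1 month, 0 to 22 for NiO against C60 at 3 days and 0 at 1 month, 5 to 16 for the NiO effect and 3 to 9 for the C60 effect. Where this left C60 at 3 days with 1 array, that array was assumed to vary like the other groups. The slide as a block could not be fitted, since each slide holds 1 group. No paired analysis was possible because the labels give no replicate numbers and the groups share no animals. Signal over background limited no member, as all were above it on every array.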
